A study of Mus musculus with 4 samples.

Results

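The 10 genes of the alternative, lectin and terminal arms of complement were followed through the cell types of the TNF+ and TNF- mouse. They are C3, Cfb, Cfd, Cfp, Masp1, Fcna, Hc, C6, C7 and C9, taken by symbol from the gene list of the count matrices, and they make up 10 of the 32285 genes counted. The question was which fibroblast, macrophage, endothelial and epithelial subtypes carried their transcripts, and how the levels compared between the genotypes within each subtype.

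Complement is a cascade of plasma and tissue proteins in which the cleavage of C3 marks a surface for uptake and starts the killing phase. The alternative pathway cleaves C3 with factor B after its activation by factor D, and properdin holds that convertase together, while the lectin pathway starts from sugar patterns bound by ficolins or collectins and their partner proteases. The terminal components C5, C6, C7, C8 and C9 assemble into the pore of the membrane attack complex. The liver supplies most of these proteins to plasma, and stromal, epithelial and myeloid cells of other tissues transcribe several of them locally.

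Single-cell suspensions of lung and synovium were profiled by droplet-based RNA sequencing in female TNF+ mice (hTNFtg in the sample labels), which carry 1 copy of a human TNF transgene, and in TNF- littermates without it. All mice were 4 months old and on a C57BL/6 background, and the line is known for erosive arthritis with disease of the lung vessels. Tissue was pooled by genotype, from 3 to 5 mice for lung and from 5 to 10 for synovium, digested with enzymes and sorted for viable cells, so each of the 4 groups is 1 library. No difference below has a replicate check, and the intervals, all at 95%, cover counting error only. The mouse reference does not hold the human transgene, so its expression was not measured.

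Levels are given as CPM, a gene's UMIs scaled to all UMIs of the same cells, and the 2 genotypes are compared as the log2 ratio of TNF+ over TNF-. The 4 libraries held 8555, 11243, 6899 and 4246 cell barcodes (lung TNF-, lung TNF+, synovium TNF- and synovium TNF+). After the study's own limits (200 to 5000 genes detected, mitochondrial share up to 20%), the kept cells numbered 6998, 9174, 6200 and 3152. Pairs of libraries shared 5 to 21 barcodes, at most 0.304% of the smaller library. Cell types were rebuilt from marker genes, so each name stands for cells like that type. Kept lung fibroblasts, endothelial and epithelial cells of the TNF+ library were shallow, with median UMI counts of 1083, 739 and 2552 against 6844, 5540 and 8908 in the TNF- library. T cells were taken as the reference for free RNA in each library, on the untested assumption that they do not make these components.

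The upper limit of 5000 genes bears on most values. Barcodes over the limit made up 15.2% and 17.0% of the TNF- and TNF+ lung barcodes, and held 68.7% and 64.1% of all C3 UMIs there. They also held 75.1% and 87.0% of the Cfb UMIs, 75.1% and 88.6% of the Hc UMIs and 75.5% and 88.7% of the C6 UMIs of the TNF- and TNF+ lung. In the synovium such barcodes were 6.09% and 8.15% of the total, with 15.7% and 31.4% of the C3 UMIs. These barcodes are deeper than kept cells, so the shares, set against barcodes, overstate how far a gene was concentrated in them. As CPM, lung C3 was 191 (TNF-) and 681 (TNF+) over the limit against 66.7 and 319 in kept cells. Synovial C3 was 874 and 964 CPM against 854 and 905 CPM, close to the level of kept cells. Such barcodes can be large cells or doublets, and which of these they were was not tested. Values are therefore given in kept cells first and beside them for all barcodes, clustered and named anew, where they bear on a result.

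**Figure D1:**
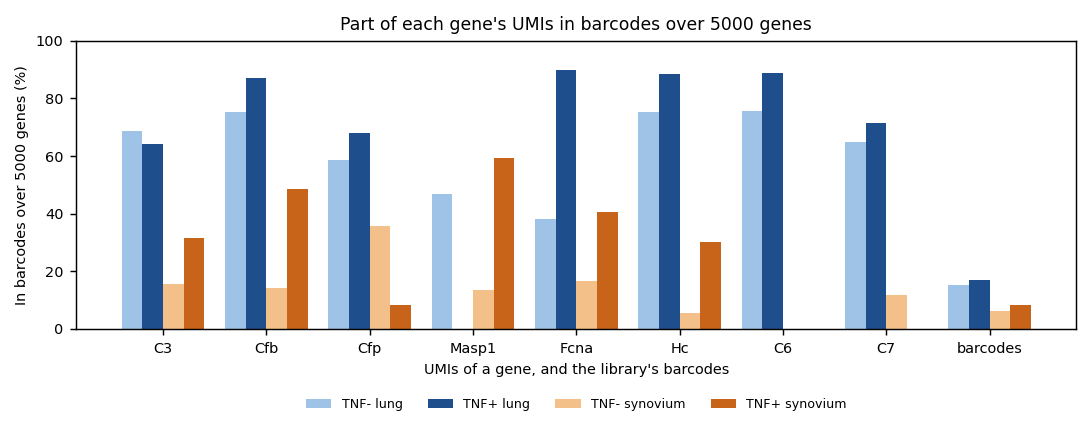
Percent of each gene's UMIs that lay in barcodes with over 5000 detected genes, by library, with the percent of all barcodes over that limit at the far right. Bars are drawn where a gene had at least 20 UMIs in all barcodes of a library. In the TNF- lung 75.1% of Cfb UMIs lay in such barcodes against 15.2% of the barcodes themselves. These barcodes are deeper, and as CPM Cfb was 39.3 in them against 9.87 in kept cells.

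In kept cells the members fell into groups by cell class. C3, Cfb, Masp1 and C7 were fibroblast genes in the synovium, with 91.9%, 90.1%, 85.8% and 94.7% of the UMIs of both genotypes together. In the lung C7 was also a fibroblast gene (97.4% of its UMIs), whereas 77.3% of C3 and 84.1% of Cfb UMIs lay in mononuclear phagocytes, a pooled share set mostly by the TNF+ library. In the TNF- lung fibroblasts held 60.0% and phagocytes 24.8% of C3 UMIs, and phagocytes held 62.1% and fibroblasts 26.6% of Cfb UMIs. Cfp and Fcna were genes of mononuclear phagocytes in both tissues, at 84.4% and 97.0% of the lung UMIs and 93.3% and 95.3% of the synovial UMIs. The pooled lung share of Cfp was also set mostly by the TNF+ library, with 5208 of the 6005 UMIs, and was lower in the TNF- lung. Hc and C6 were epithelial genes of the lung, at 89.0% and 84.4% of the UMIs of both genotypes together. Both shares were lower in the TNF+ than in the TNF- library, which had 3952 of the 5356 Hc and 422 of the 736 C6 UMIs. Cfd and C9 were near the limit of detection in all 4 libraries.

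**Figure D2:**
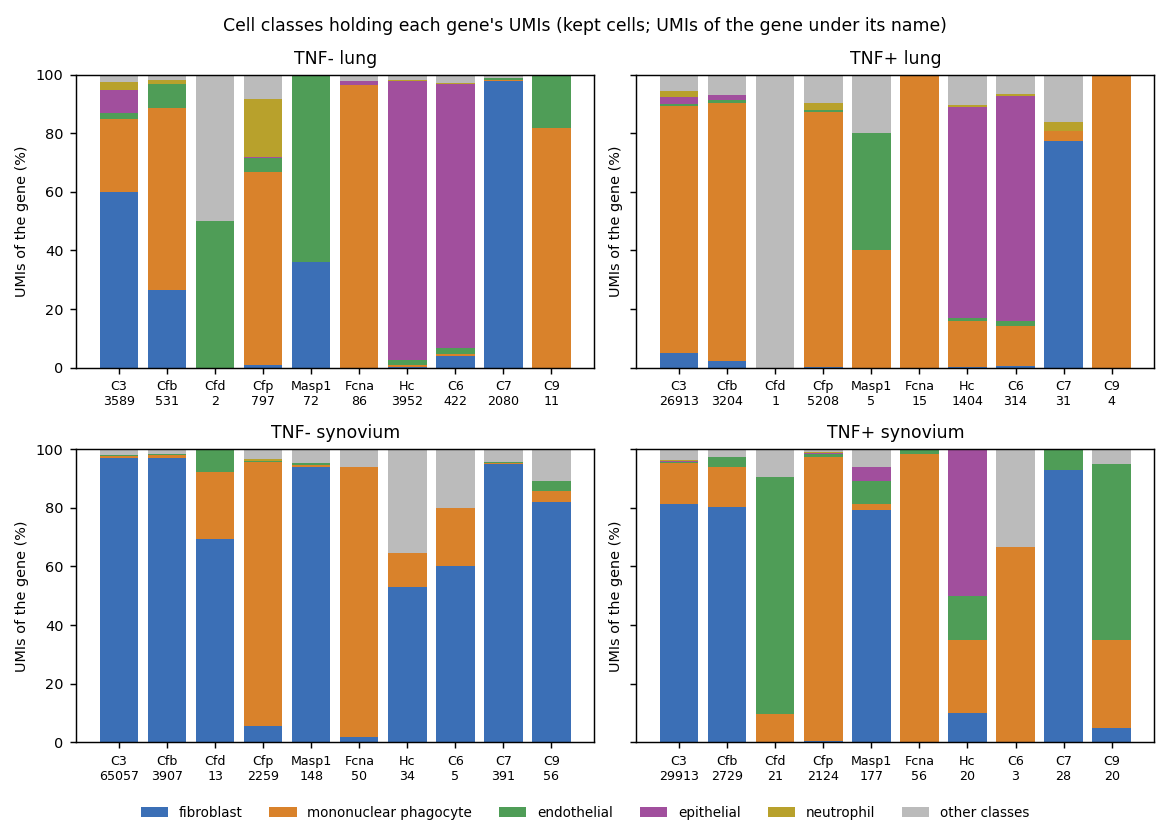
Stacked bars show the percent of each gene's UMIs by cell class in the kept cells of each library, with the gene's total UMIs under its name. Fibroblasts (blue) held 96.9% and 81.1% of the synovial C3 UMIs of TNF- and TNF+ mice, and mononuclear phagocytes (orange) held 84.3% in the lung of TNF+ mice.

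C3, the component on which all pathways converge, lies at chr17:57203970-57228136 on the minus strand of GRCm38 (ENSMUSG00000024164). Its start region is shown because C3 was the member with the widest range of levels over cell types. The window runs from 250 bases before to 50 bases after the RefSeq start (GRCm38.p6, chr17:57228087-57228386, minus strand, written 5′ to 3′), and capitals mark matches on either strand to the C/EBP letters TTNNGNAA or to the TATA box letters TATAAA.
C3: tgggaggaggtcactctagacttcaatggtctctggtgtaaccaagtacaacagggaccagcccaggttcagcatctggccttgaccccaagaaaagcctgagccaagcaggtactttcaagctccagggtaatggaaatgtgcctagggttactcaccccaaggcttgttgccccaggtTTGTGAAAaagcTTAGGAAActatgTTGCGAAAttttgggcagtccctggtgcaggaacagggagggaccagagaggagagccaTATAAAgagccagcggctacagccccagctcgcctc
The C/EBP letters matched at 70, 58 and 45 bases before the RefSeq start, the last of them on both strands, and TATAAA matched at 14 bases after it. Of all 32851 RefSeq windows of this length, 40.7% held the C/EBP letters and 13.6% held TATAAA. C/EBP proteins are factors of the acute-phase response, and a match of letters shows no binding.

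In synovial fibroblasts C3 was higher in the TNF+ library. The level was 1263 CPM (1253 to 1273) in 3225 TNF- cells and 4453 CPM (4397 to 4509) in 395 TNF+ cells, a log2 ratio of 1.82 (1.80 to 1.84). After thinning every cell to 1000 UMIs, 47.7% (46.0 to 49.4) of TNF- and 75.3% (70.7 to 79.5) of TNF+ fibroblasts had a C3 UMI, against 3.10% and 3.12% of T cells. Without thinning the shares were 79.4% and 90.6%, at median depths of 15530 and 12308 UMIs. With all barcodes the log2 ratio was 1.26 (1.24 to 1.28).

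The fibroblast subtypes were not the same in the genotypes. Among groups with at least 20 cells, C3 of the TNF+ synovium was highest in fibroblasts marked by Mmp13, a collagenase, and Ibsp, a bone matrix protein. These 173 cells, with no counterpart in the TNF- library, had 5058 CPM (4982 to 5135) and held 56.9% of all C3 UMIs of that library. With all barcodes they were 329 cells at 3029 CPM with 68.7% of the C3 UMIs. In TNF- mice C3 was highest in Pi16 Dpp4 fibroblasts, a type known from the adventitia and fascia, at 1996 CPM (1971 to 2022) in 687 cells. Next were a small cluster led by Sfrp2, Rrad and Sfrp4 (1438 CPM in 73 cells) and Gdf10 Myoc fibroblasts (1417 CPM in 858 cells), whose C3 intervals overlapped. Cxcl14 Smoc2 fibroblasts followed at 868 CPM in 1258 cells. Pi16 Dpp4 and Cxcl14 Smoc2 fibroblasts had 11 TNF+ cells each, too few for a ratio, with C3 at 5227 and 4689 CPM.

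Subtypes held by both libraries had higher C3 in TNF+ mice. In Gdf10 Myoc fibroblasts C3 was 3969 CPM in 115 TNF+ cells, a log2 ratio of 1.49 (1.43 to 1.54), and it was 1.49 with all barcodes. In tendon fibroblasts, which carry Tnmd and related tendon genes, C3 was 421 CPM in 272 TNF- cells against 2714 CPM in 69 TNF+ cells, a log2 ratio of 2.69 (2.58 to 2.79). Leaving out clusters with over 90% of their cells from 1 library, among them the Mmp13 Ibsp cells, gave 1.45 for C3 in all synovial fibroblasts.

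Among synovial mononuclear phagocytes C3 was 53.4 CPM (49.0 to 58.2) in 598 TNF- cells and 256 CPM (248 to 264) in 1215 TNF+ cells, a log2 ratio of 2.26 (2.13 to 2.39). With all barcodes it was 1.46 (1.37 to 1.55). Most of the TNF+ UMIs, 3127 of 4233, were in 706 Trem2 macrophages, a lipid-handling type represented by 3 cells in the TNF- library, at 260 CPM. Nonclassical monocytes, which patrol vessels, had C3 levels of 129 CPM in 80 TNF- cells and 394 CPM in 197 TNF+ cells, a log2 ratio of 1.61 (1.33 to 1.90). Resident macrophages had C3 at 11.1 CPM from 9 UMIs in 62 TNF- cells and 195 CPM from 60 UMIs in 30 TNF+ cells, a log2 ratio of 4.14 (3.12 to 5.33).

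The synovial endothelium went the other way for C3, as a class at a level near that of T cells. C3 was 47.3 CPM in 708 TNF- and 21.5 CPM in 601 TNF+ endothelial cells, a log2 ratio of -1.14 (-1.51 to -0.78), and -0.16 (-0.44 to 0.13) with all barcodes. The TNF- endothelial cells had 0.218 C3 UMIs per cell against 0.246 in TNF- T cells. In arterial endothelium the TNF- cells had 0.697 C3 UMIs per cell and the TNF+ cells 0.0727, from 46 and 8 UMIs. The TNF- arterial cells were above the T cells beyond counting error. In the TNF+ synovium epithelial cells of the gland luminal and basal or myoepithelial types were also above the T cells for C3.

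**Figure D3:**
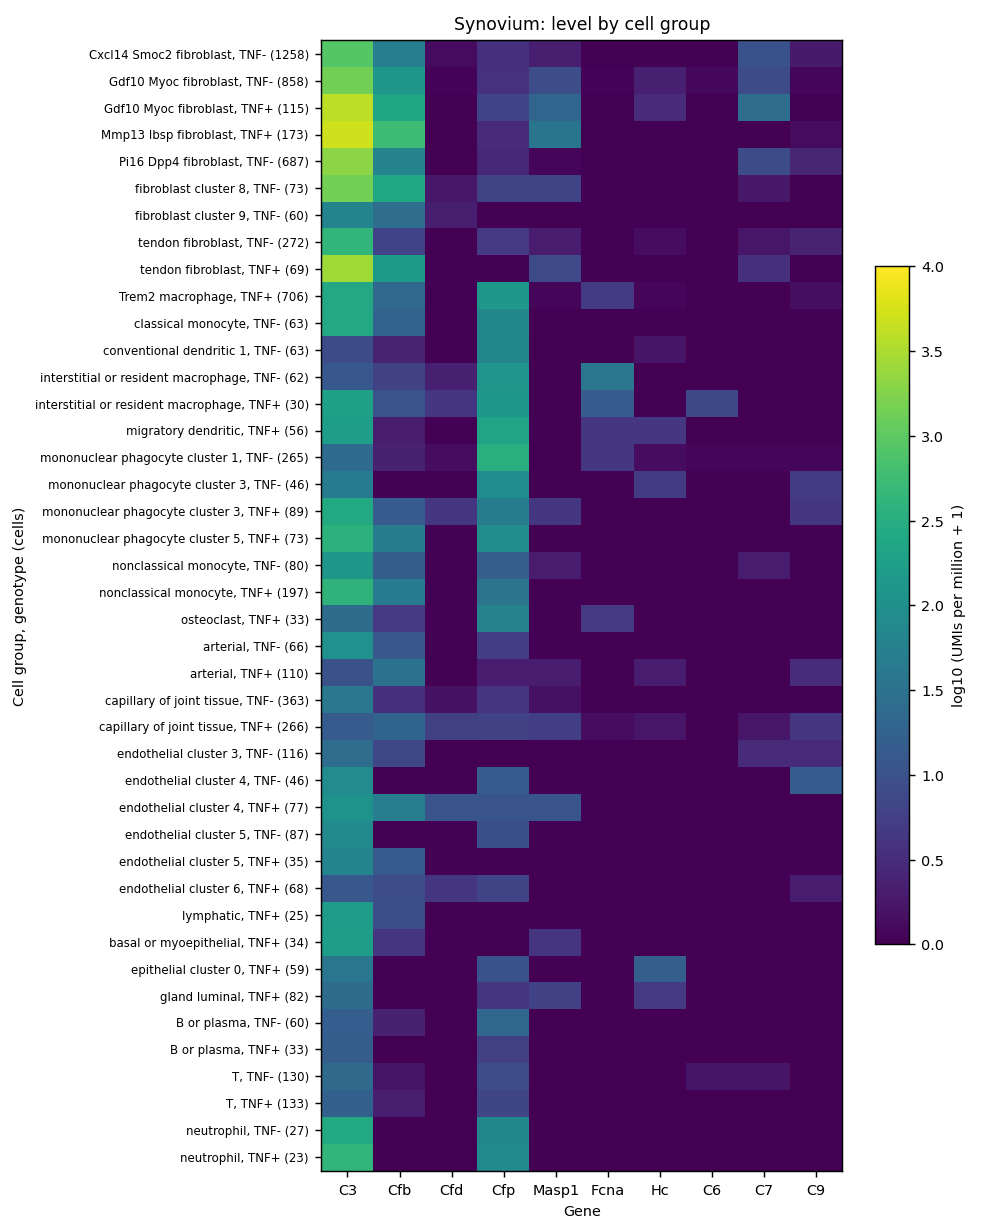
Heat map of the level of each gene (log10 of CPM + 1) in each synovial cell group with at least 20 kept cells, by genotype, with the number of cells in brackets. The Mmp13 Ibsp fibroblasts of the TNF+ library show the highest C3 level (5058 CPM), and C6 is dark throughout.

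In the lung C3 was higher in TNF+ cells of every class compared, including T cells, with 3.10 CPM (TNF-) and 33.8 CPM (TNF+). The background was taken as the C3 of T cells, 0.0294 UMIs per cell in TNF- and 0.316 in TNF+ mice. Whether these UMIs were free RNA, came from doublets or were made by the T cells was not tested. Lung endothelial cells had 142 C3 UMIs in 403 TNF+ cells, 0.352 per cell, which did not separate from that background. By contrast, 17 of 25 TNF+ lung groups with at least 20 cells and 9 of 31 TNF- groups had more C3 UMIs per cell than T cells, beyond the counting intervals of both.

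The largest C3 gap between lung genotypes within macrophages was in interstitial macrophages, the tissue macrophages outside the airspace. C3 had 6 UMIs in 63 TNF- cells (7.62 CPM, 2.80 to 16.6) and 5456 UMIs in 244 TNF+ cells (1689 CPM, 1645 to 1735), a log2 ratio of 7.79 (6.67 to 9.24). With all barcodes the level was 27.5 and 1411 CPM in 71 and 491 cells, a ratio of 5.68 (5.14 to 6.28). In alveolar macrophages, which clear the airspace, C3 was 58.4 CPM in 104 TNF- and 334 CPM in 71 TNF+ cells, a log2 ratio of 2.51 (2.17 to 2.87). Lung monocytes showed smaller C3 differences, with log2 ratios of 2.27 (2.08 to 2.47) in nonclassical and 1.17 (1.02 to 1.31) in classical monocytes. The 2875 TNF+ nonclassical monocytes held 42.2% of the library's kept C3 UMIs at 387 CPM, and with subclusters of over 90% from 1 library left out their ratio was 1.54. Conventional type 2 dendritic cells, which present antigen to helper T cells, had 1 C3 UMI in 30 TNF- cells and 703 in 123 TNF+ cells. Neutrophils had C3 at 69.9 and 527 CPM.

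Lung fibroblasts carried C3 in both genotypes. C3 was 695 CPM (666 to 725) in 427 TNF- and 4057 CPM (3846 to 4277) in 93 TNF+ fibroblasts, a log2 ratio of 2.55 (2.45 to 2.64). Of the TNF+ cells, 61 belonged to a cluster led by Saa3, Igha and Jchain, of which Igha and Jchain are genes of plasma cells, and whether free RNA of other cells added to its C3 was not tested. Adventitial fibroblasts, which sheathe vessels and airways, had the highest C3 level of the TNF- lung at 2745 CPM in 23 cells and a near level of 3191 CPM in 20 TNF+ cells, a log2 ratio of 0.22 (0.06 to 0.37) that was -0.22 in UMIs per cell. With all barcodes that comparison changed to 1349 CPM in 50 and 6085 CPM in 47 cells, a ratio of 2.17 (2.09 to 2.25). All barcodes also gave a mesothelial cluster of 14 TNF- and 8 TNF+ cells, the lining of the pleura, with C3 at 4534 and 9860 CPM.

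In lung epithelium C3 was 80.5 CPM (71.3 to 90.6) in 345 TNF- and 667 CPM (615 to 722) in 146 TNF+ cells, a log2 ratio of 3.05 (2.84 to 3.26), and 3.21 with all barcodes. Alveolar type 2 cells, the makers of surfactant, had C3 levels of 101 CPM in 170 TNF- cells and 822 CPM in 49 TNF+ cells, a log2 ratio of 3.03 (2.81 to 3.24). With all barcodes the C3 of TNF+ epithelium lay mainly in a cluster led by Ly6i, Saa3 and Slpi, with 193 TNF+ and 2 TNF- cells, at 1069 CPM.

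**Figure D4:**
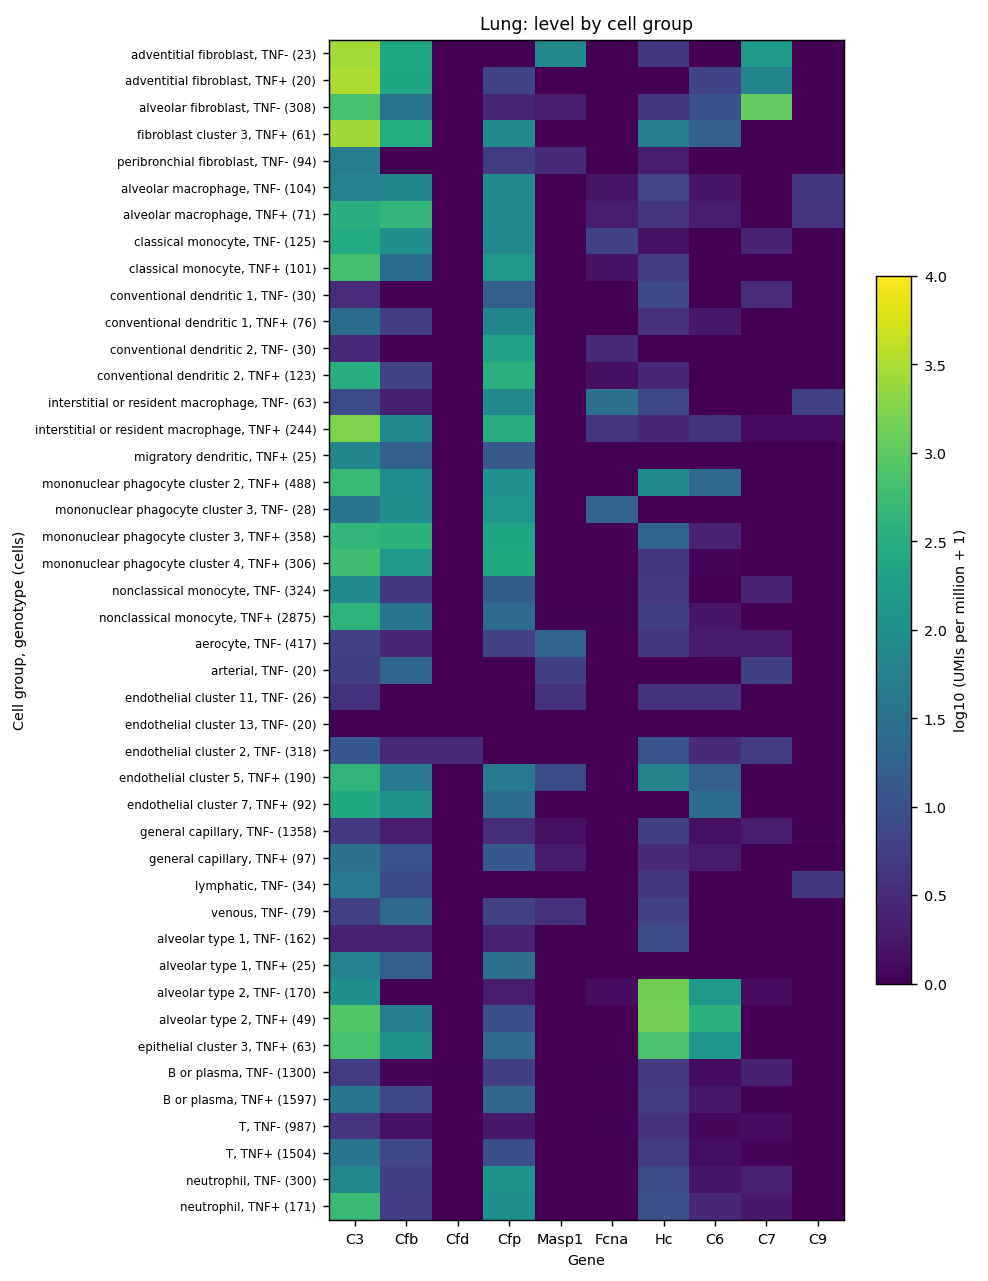
Heat map of the level of each gene (log10 of CPM + 1) in each lung cell group with at least 20 kept cells, by genotype, with the number of cells in brackets. Hc stands out in alveolar type 2 cells of both genotypes (1359 and 1461 CPM) and C7 in alveolar fibroblasts of the TNF- library (1082 CPM).

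Cfb encodes factor B, the protease of the alternative pathway convertase, at chr17:34856374-34862518 (minus strand, ENSMUSG00000090231), and Gm20547 and Mir6972 overlap it on the same strand, so its reads cannot be told apart from theirs. In synovial fibroblasts Cfb was 75.9 CPM (73.5 to 78.4) in TNF- mice against 403 CPM (386 to 420) in TNF+ mice, a log2 ratio of 2.41 (2.33 to 2.48), and 2.35 with all barcodes. A Cfb UMI was found in 6.30% and 19.3% of cells thinned to 1000 UMIs, and in 34.3% and 57.7% of cells without thinning. No synovial T cell had one after thinning.

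The Mmp13 Ibsp fibroblasts led for Cfb too, with 1828 of the 2729 Cfb UMIs of the TNF+ synovium and a level of 543 CPM (518 to 568). The next group of that library, Gdf10 Myoc fibroblasts, had Cfb at 221 CPM (192 to 253) against 130 CPM (124 to 136) in the TNF- library, a log2 ratio of 0.77 (0.55 to 0.98) that was -0.15 in UMIs per cell. Tendon fibroblasts had 15 Cfb UMIs in 272 TNF- cells and 116 in 69 TNF+ cells, a log2 ratio of 4.80 (4.02 to 5.68), and 44 of the 116 came from 1 cell. In the TNF- synovium the highest Cfb level was 238 CPM (212 to 267) in the cluster led by Sfrp2, Rrad and Sfrp4. Leaving out clusters with over 90% of their cells from 1 library lowered the log2 ratio of Cfb in all synovial fibroblasts to 0.62.

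Outside fibroblasts, synovial Cfb was low but higher in the TNF+ library. Mononuclear phagocytes had Cfb at 4.33 CPM from 43 UMIs in TNF- and 22.1 CPM from 365 UMIs in TNF+ cells, a log2 ratio of 2.35 (1.89 to 2.84). Endothelial cells had 13 and 95 Cfb UMIs, 4.00 and 18.7 CPM, a log2 ratio of 2.23 (1.38 to 3.19). Within the endothelium, Cfb was 11.3 and 30.3 CPM in arterial cells (5 and 28 UMIs) and 2.60 and 18.2 CPM in capillaries of joint tissue (5 and 49 UMIs).

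In the kept lung cells the subtype with most Cfb UMIs was the classical monocyte in TNF- mice (198 of 531, 102 CPM) and the nonclassical monocyte in TNF+ mice (980 of 3204, 33.4 CPM). Alveolar macrophages held 96 and 427 Cfb UMIs. Their Cfb level was 63.0 CPM (51.0 to 76.9) in TNF- and 442 CPM (401 to 486) in TNF+ cells, a log2 ratio of 2.81 (2.49 to 3.15). With all barcodes they were 459 and 677 cells with 1054 and 16115 Cfb UMIs, which is 48.4% and 65.2% of the Cfb UMIs of their libraries, at 86.8 and 628 CPM. The log2 ratio was then 2.86 (2.77 to 2.95). A TNF+ cluster led by Spp1, Ccl8 and H2-M2, with 358 TNF+ and 28 TNF- cells, had Cfb at 371 CPM (329 to 418), an interval that overlapped that of alveolar macrophages.

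Other lung phagocytes differed in their Cfb. Nonclassical monocytes had 9 Cfb UMIs in 324 TNF- and 980 in 2875 TNF+ cells, a log2 ratio of 3.34 (2.41 to 4.47). Interstitial macrophages had 1 Cfb UMI in the TNF- and 257 in the TNF+ library, a ratio of 5.97 (3.48 to 11.28) that fell to 1.28 (0.69 to 1.93) with all barcodes. In classical monocytes Cfb was 102 and 25.2 CPM, a log2 ratio of -2.01 (-2.51 to -1.53), but 66 of the 198 TNF- UMIs were in 1 cell, and with all barcodes the ratio was -0.07 (-0.79 to 0.65). Over all lung mononuclear phagocytes the log2 ratio of Cfb was 0.67 (0.50 to 0.84) in kept cells, 0.96 without the cell with most UMIs in each library and 1.93 (1.85 to 2.01) with all barcodes.

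Epithelial Cfb was found almost only in the TNF+ lung. There was 1 Cfb UMI in 345 TNF- and 49 in 146 TNF+ kept epithelial cells, and 14 in 693 and 1349 in 317 cells with all barcodes, a log2 ratio of 7.17 (6.42 to 8.05). Alveolar type 2 cells had no Cfb UMI in the TNF- library and 31 in the TNF+ library, which against a floor of 3 UMIs in the library is a log2 ratio of at least 5.50. Lung fibroblasts had Cfb at 45.5 and 223 CPM, a log2 ratio of 2.30 (1.87 to 2.71), while adventitial fibroblasts had 247 and 227 CPM, a difference within the counting interval (-0.70 to 0.44). Venous endothelium of the TNF- lung had 19 Cfb UMIs in 79 cells, 23.2 CPM.

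**Figure D5:**
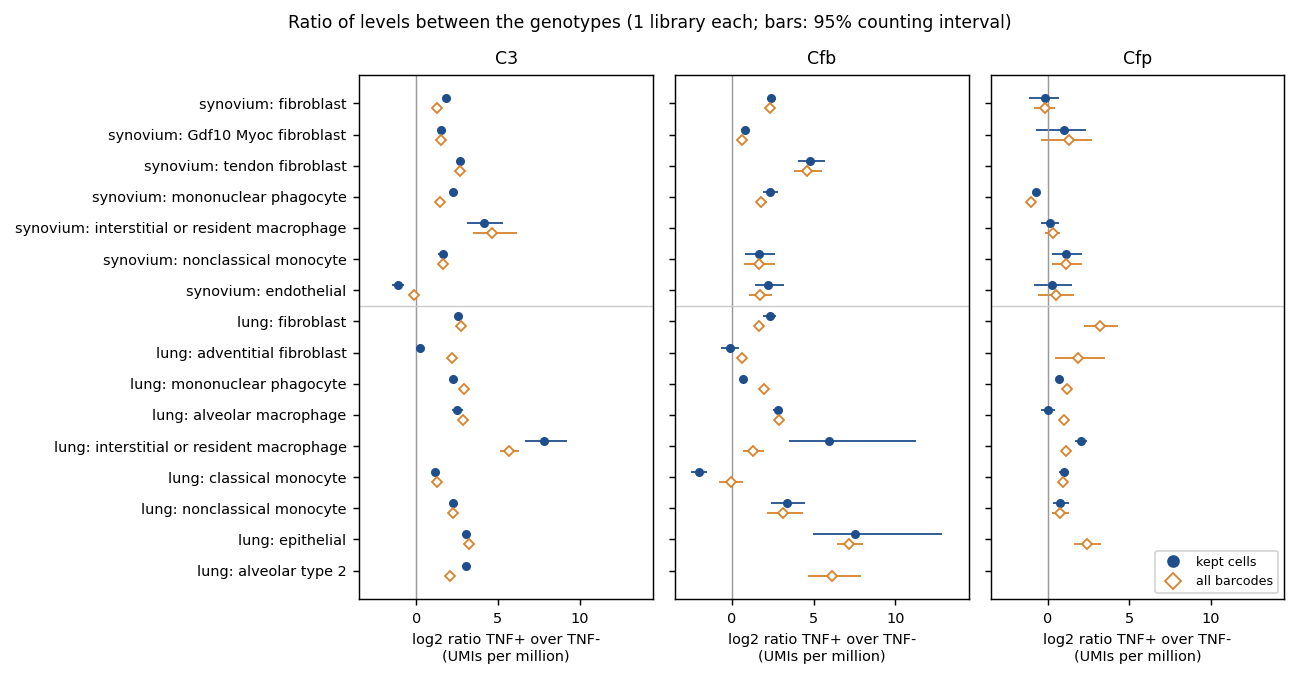
Log2 ratio of CPM in TNF+ over TNF- cells for C3, Cfb and Cfp in chosen cell classes and subtypes of synovium (upper rows) and lung (lower rows), with bars for the 95% counting interval. Filled circles are kept cells and open diamonds all barcodes, and groups with under 20 UMIs or with no UMI in a library are not drawn. C3 lies right of 0 in the groups drawn except the synovial endothelium (-1.14 in kept cells). Synovial mural, Schwann and T cells, which are not drawn, also had C3 ratios under 0 in kept cells (-0.71, -0.49 and -0.48), with counting intervals that included 0.

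Cfd encodes factor D, the protease that activates factor B and a well-known product of fat cells, at chr10:79890853-79892655 (plus strand, ENSMUSG00000061780). Cfd had 2 and 1 UMIs in kept cells of the TNF- and TNF+ lung, and 13 and 21 in those of the synovium. Of the 13, 9 were in fibroblasts, 1 UMI each in 9 cells. Of the 21, 17 were in endothelial cells, and 6 of those came from 1 cell. No cell group had more Cfd per cell than T cells beyond counting error in any library. Markers of fat cells were low in all libraries, with a summed level of 16.3 and 4.82 CPM in the TNF- and TNF+ lung and 16.8 and 6.26 CPM in the synovium, and Adipoq at 10 to 23 UMIs. Their part in the Cfd counts was not tested.

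Cfp encodes properdin, which stabilises the alternative pathway convertase and is stored by neutrophils and made by monocytes and macrophages. The gene lies on the X chromosome at chrX:20925454-20931555 (minus strand, ENSMUSG00000001128). In synovial mononuclear phagocytes Cfp was lower in the TNF+ library, at 205 CPM (196 to 214) in TNF- and 124 CPM (119 to 130) in TNF+ cells, a log2 ratio of -0.73 (-0.82 to -0.64), and -1.02 (-1.09 to -0.94) with all barcodes.

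The subtypes that held Cfp were not the same in the genotypes. In the TNF- synovium 74.7% of the Cfp UMIs were in 265 cells of a cluster led by Cd209a, Retnla and Mgl2, at 321 CPM (306 to 336), and the 14 TNF+ cells of that cluster had 297 CPM (230 to 377). In the TNF+ synovium 75.9% were in Trem2 macrophages, at 134 CPM (128 to 141). Migratory dendritic cells, which carry antigen to lymph nodes, had the highest Cfp level of the TNF+ groups with at least 20 cells, at 212 CPM (184 to 244). Within subtypes of both libraries, Cfp was 121 and 133 CPM in resident macrophages, a log2 ratio of 0.14 (-0.42 to 0.68), and in nonclassical monocytes it came from 14 and 52 UMIs, a ratio of 1.14 (0.27 to 2.11). Osteoclasts, the bone-resorbing cells of this lineage, had Cfp at 61.5 CPM (45.6 to 81.0) in 33 TNF+ cells.

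In lung mononuclear phagocytes Cfp was higher in the TNF+ library, at 61.5 CPM (56.3 to 67.0) in TNF- and 99.2 CPM (96.3 to 102) in TNF+ cells, a log2 ratio of 0.69 (0.56 to 0.82), and 1.16 (1.09 to 1.24) with all barcodes. A Cfp UMI was present in 4.55% and 6.87% of thinned cells and in 27.3% and 29.5% of unthinned cells, against 0.203% and 0.934% of thinned T cells. Conventional type 2 dendritic cells led in both genotypes, at 212 CPM (174 to 256) and 347 CPM (323 to 373). Interstitial macrophages followed in TNF+ mice at 308 CPM (290 to 328) against 76.2 CPM in TNF- mice, a log2 ratio of 2.02 (1.64 to 2.42) that was 1.11 with all barcodes. Alveolar macrophages had Cfp at 75.4 and 75.6 CPM, a log2 ratio of 0.00 (-0.44 to 0.44) in kept cells and 0.99 (0.87 to 1.11) with all barcodes. Lung neutrophils had 107 CPM (90.5 to 125) and 99.4 CPM (81.9 to 119), whose intervals overlapped. Neutrophils and B or plasma cells of both lung libraries had more Cfp per cell than T cells beyond counting error. So did mast or basophil cells of the TNF- lung.

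Masp1 encodes a serine protease that travels with lectins of the lectin pathway, at chr16:23449417-23520815 (minus strand, ENSMUSG00000022887), and Gm49514, Gm45338 and Rtp4 lie on the other strand. Synovial fibroblasts had 139 Masp1 UMIs in 3225 TNF- and 140 in 395 TNF+ cells, 2.79 CPM (2.34 to 3.29) and 25.7 CPM (21.6 to 30.3), a log2 ratio of 3.20 (2.86 to 3.55). Gdf10 Myoc fibroblasts held 70.9% of the TNF- Masp1 UMIs at 7.93 CPM and had 19.2 CPM in TNF+ mice, a log2 ratio of 1.27 with a lower bound of 0.46. Mmp13 Ibsp fibroblasts held 65.5% of the TNF+ Masp1 UMIs at 34.4 CPM (28.5 to 41.3), an interval that overlapped that of the TNF+ Gdf10 Myoc cells. Without clusters of 1 library the log2 ratio of Masp1 in synovial fibroblasts was 1.03. Fibroblasts held 139 of the 148 Masp1 UMIs of the TNF- and 140 of the 177 of the TNF+ synovium. Gland luminal epithelial cells of the TNF+ synovium were also above the T cells for Masp1.

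In the lung Masp1 UMIs lay mostly in the TNF- library. Aerocytes, the capillary cells of gas exchange, held 37 of its 72 UMIs, 17.5 CPM (12.3 to 24.1) in 417 cells with at most 2 UMIs in a cell. A further 22 Masp1 UMIs came from 1 adventitial fibroblast. The TNF+ lung had 5 Masp1 UMIs in all kept cells and only 14 aerocytes, so a difference in aerocytes was not detectable at this depth.

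Fcna encodes ficolin A, a lectin that starts the lectin pathway and is known from macrophages of liver and spleen, at chr2:25624666-25628030 (minus strand, ENSMUSG00000026938). The antisense gene Fcnaos overlaps it. Among groups with at least 20 cells, interstitial or resident macrophages had the highest measured Fcna level of the TNF- synovium, from 29 UMIs. In the TNF+ synovium they had 4 of 56 Fcna UMIs, whereas Trem2 macrophages held 45 at 3.74 CPM (2.73 to 5.00), and the intervals of both overlapped. In the synovium it was 35.7 CPM (23.9 to 51.2) in 62 TNF- cells and between 3.54 and 33.2 CPM by its interval in 30 TNF+ cells, a log2 ratio of -1.46 (-3.43 to 0.05), and -1.27 (-2.54 to -0.15) with all barcodes. In the lung it was 29.2 CPM (18.5 to 43.8) and 3.10 CPM (1.48 to 5.69), a log2 ratio of -3.24 (-4.47 to -2.11) from 23 and 10 UMIs, and -3.79 (-4.34 to -3.24) from 66 and 51 UMIs with all barcodes. In the same macrophages C3 was higher in TNF+ mice, with log2 ratios of 4.14 in the synovium and 7.79 in the lung. The log2 ratio of Fcna in mononuclear phagocyte cells of lung was -4.89 (-5.79 to -4.09), but 47 of the 83 TNF- UMIs were in 1 cell and the ratio was -3.90 without the top cell of each library and -1.97 (-2.32 to -1.62) with all barcodes. Over all synovial mononuclear phagocytes it was -0.48 (-1.07 to 0.12) in kept cells and 0.27 (-0.23 to 0.77) with all barcodes, so the direction there depended on the filter.

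Hc encodes complement C5, the source of the anaphylatoxin C5a and the first part of the membrane attack complex, at chr2:34983331-35061438 (minus strand, ENSMUSG00000026874). Gm13449 overlaps it on the other strand. Alveolar type 2 cells of the lung held 94.5% of its UMIs in the TNF- and 65.2% in the TNF+ library. Their Hc level was 1359 CPM (1316 to 1403) in 170 TNF- and 1461 CPM (1368 to 1559) in 49 TNF+ cells, a log2 ratio of 0.10. In all lung epithelium it was 1088 CPM and 1107 CPM, a ratio of 0.03 (-0.08 to 0.13) in kept cells and 0.18 (0.15 to 0.21) with all barcodes. After thinning, 39.9% (34.0 to 46.1) of TNF- and 39.3% (30.2 to 49.0) of TNF+ epithelial cells had an Hc UMI, against 0.406% and 0.801% of T cells. T cells had 0.0253 and 0.0386 Hc UMIs per cell. Outside the epithelium, among lung groups with at least 20 cells, alveolar macrophages of the TNF- library were above T cells beyond counting error, at 0.0865 UMIs per cell from 9 UMIs in 104 cells, and those of the TNF+ library were not (0.0423). In TNF+ epithelial cells of the cluster led by Ly6i, Slpi and Lcn2, Hc was 745 CPM (604 to 908) in 63 kept cells, and with all barcodes the cluster led by Ly6i, Saa3 and Slpi held 77.5% of the library's Hc at 1517 CPM.

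The synovium had 34 and 20 Hc UMIs in the TNF- and TNF+ kept cells. Of the 34, 16 were in Gdf10 Myoc fibroblasts and 11 in 137 NK or innate lymphoid cells, 6 of these in 1 cell. Of the 20, 10 were in epithelial cells, and no TNF+ synovial group had more Hc per cell than T cells beyond counting error.

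C6 binds C5b and starts the assembly of the pore, and its gene lies at chr15:4727175-4814967 (plus strand, ENSMUSG00000022181). Its start region is shown because C6 shared the alveolar type 2 cells with Hc. The window is chr15:4726960-4727259 (RefSeq, GRCm38.p6, plus strand, 5′ to 3′), with capitals at the NKX2-1 letters CAAGTG and at matches on either strand to TTNNGNAA.
C6: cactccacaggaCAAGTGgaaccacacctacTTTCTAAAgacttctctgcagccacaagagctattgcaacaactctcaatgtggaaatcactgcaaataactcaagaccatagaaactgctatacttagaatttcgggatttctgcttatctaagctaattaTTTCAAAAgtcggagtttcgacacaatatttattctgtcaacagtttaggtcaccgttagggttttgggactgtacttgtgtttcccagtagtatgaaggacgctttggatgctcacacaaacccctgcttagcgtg
NKX2-1 is a factor of lung epithelium, and CAAGTG on either strand occurred in 13.6% of the 32851 windows. The window of Hc had no match to CAAGTG.

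Alveolar type 2 cells held 380 of the 422 C6 UMIs of the TNF- lung and 224 of 314 in the TNF+ lung. Unlike the level of Hc, that of C6 was over 2-fold higher in TNF+ cells. The C6 level was 138 CPM (125 to 153) from 380 UMIs in TNF- and 358 CPM (312 to 408) from 224 UMIs in TNF+ alveolar type 2 cells, a log2 ratio of 1.37 (1.13 to 1.61), and 1.28 (1.07 to 1.48) with all barcodes. In all lung epithelium the ratio of C6 was 1.26 in kept cells and 1.26 (1.18 to 1.35) with all barcodes, but 0.76 under a stricter filter on genes and mitochondrial UMIs. A C6 UMI was in 9.51% and 12.5% of thinned epithelial cells. Alveolar fibroblasts of the TNF- lung had 17 C6 UMIs in 308 cells, 9.25 CPM (5.39 to 14.8), above the T cells. Interstitial macrophages of the TNF+ lung were also above the T cells for C6. Over all lung mononuclear phagocytes C6 was over 2-fold higher in the TNF+ library. The synovium had 5 and 3 C6 UMIs in all its kept cells.

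C7 anchors the growing complex in the membrane, and its gene lies at chr15:4988762-5063740 (minus strand, ENSMUSG00000079105). Its start region is shown because C7 was the member that was lower in TNF+ lung fibroblasts while C3 was higher. The window is chr15:5063724-5064023 (RefSeq, GRCm38.p6, minus strand, 5′ to 3′), with capitals at matches on either strand to the STAT letters TTCNNNGAA, to TTNNGNAA and to TATAAA.
C7: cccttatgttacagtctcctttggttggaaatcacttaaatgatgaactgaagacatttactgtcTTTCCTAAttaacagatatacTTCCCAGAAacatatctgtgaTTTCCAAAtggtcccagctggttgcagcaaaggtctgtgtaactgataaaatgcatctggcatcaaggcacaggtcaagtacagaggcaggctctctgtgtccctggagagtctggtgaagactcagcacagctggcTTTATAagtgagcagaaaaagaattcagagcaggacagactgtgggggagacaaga
The STAT letters, which are bound by factors of cytokine signalling, matched 164 bases before the start and occurred in 8.30% of the 32851 windows.

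C7 in the lung was a gene of alveolar fibroblasts, the lipid-bearing fibroblasts of the alveolar wall. In the TNF- library they held 1988 of 2080 C7 UMIs, 1082 CPM (1035 to 1131) in 308 cells. The TNF+ library held 9 kept cells of this type, with 12 C7 UMIs at 199 CPM. Over all lung fibroblasts C7 was 656 CPM (628 to 685) in TNF- and 70.6 CPM (45.2 to 105) in TNF+ cells, a log2 ratio of -3.22 (-3.86 to -2.64), and -3.19 (-3.49 to -2.90) with all barcodes. Thinned fibroblasts with a C7 UMI were 26.1% and 6.38%. Fewer alveolar fibroblasts and less C7 per cell cannot be told apart in the class as a whole. In adventitial fibroblasts, found in both libraries, C7 was 149 CPM (108 to 200) and 63.3 CPM (32.7 to 111), a log2 ratio of -1.23 (-2.29 to -0.29) from 44 and 12 UMIs, -2.11 without the top cell of each library, and -0.33 (-0.79 to 0.12) from 110 and 68 UMIs with all barcodes.

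Synovial C7 was also found in fibroblasts, and its direction depended on the settings. Fibroblasts had 371 C7 UMIs in TNF- and 26 in TNF+ mice, 7.44 CPM (6.70 to 8.23) and 4.77 CPM (3.12 to 6.99), a log2 ratio of -0.64 (-1.27 to -0.07), but 129 of the 371 were in 1 cell and the log2 ratio of C7 in fibroblast cells of synovium was -0.40 without the top cell of each library. It was -1.78 with all barcodes, 0.71 without clusters of 1 library and 0.53 with every cell weighted equally. In Gdf10 Myoc fibroblasts, C7 was higher in TNF+ mice, at 7.63 and 25.6 CPM from 101 and 24 UMIs, a ratio of 1.75 (1.04 to 2.40) in kept cells and 1.64 (0.94 to 2.29) with all barcodes. Mmp13 Ibsp fibroblasts had no C7 UMI in 173 cells, where the floor of 3 UMIs would be a level of 0.891 CPM.

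C9 forms the ring of the pore, and its gene lies at chr15:6445327-6498751 (plus strand, ENSMUSG00000022149). Kept cells had 11 and 4 C9 UMIs in the TNF- and TNF+ lung and 56 and 20 in the synovium. In the lung 9 of the 11 were in mononuclear phagocytes, and alveolar macrophages were above T cells in both genotypes with 5 and 3 UMIs. With all barcodes alveolar macrophages had 43 and 15 C9 UMIs, 3.54 and 0.585 CPM, a log2 ratio of -2.60 (-3.55 to -1.72). In the synovium 46 of the 56 TNF- UMIs were in fibroblasts, against 1 in TNF+ fibroblasts, a log2 ratio of -2.33 (-7.66 to 0.22), and no synovial group was above the T cells. The summed level of 12 hepatocyte markers was 1.30 to 2.41 CPM in 3 of the 4 libraries and 17.8 CPM in the TNF+ synovium, of which Fgb and Fgg made up 5.93 and 8.96 CPM. Alb had at most 7 UMIs in a library, and the part of liver RNA in the C9 counts was not tested.

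The members' counts were read against all genes. Among genes with at least 20 UMIs over both libraries in synovial fibroblasts, 8.45% were over 2-fold higher and 22.4% over 2-fold lower in the TNF+ library. Of 7 members measured there 3 were higher (C3, Cfb and Masp1) and 1 lower (C9), and their median log2 ratio was 0.02 against -0.29 over all genes. In Gdf10 Myoc fibroblasts 3 of 5 members were higher (C3, Masp1 and C7) against 6.81% of genes, and in tendon fibroblasts 2 of 2 (C3 and Cfb) against 4.80%. The members were few, so each count rests on 2 to 7 genes.

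For synovial mononuclear phagocytes 2 of 4 members were over 2-fold higher (C3 and Cfb) against 9.56% of genes and 0 were lower against 19.4%, with a median of 0.89 against -0.13. In synovial nonclassical monocytes 3 of 3 were higher (C3, Cfb and Cfp) against 7.71% of genes. In synovial resident macrophages 1 of 3 was higher (C3) against 8.33% and 1 was lower (Fcna) against 11.9%. In the synovial endothelium 1 of 3 was higher (Cfb) against 9.28% and 1 was lower (C3) against 9.03%, with a median of 0.29 against -0.07.

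For lung mononuclear phagocytes 2 of 6 members were over 2-fold higher (C3 and C6) against 4.50% of genes and 1 was lower (Fcna) against 15.2%, with a median of 0.68 against -0.13. In lung interstitial macrophages 3 of 4 were higher (C3, Cfb and Cfp) against 8.42% and 1 was lower (Fcna) against 8.59%. In alveolar macrophages 2 of 3 were higher (C3 and Cfb) against 4.47%, and in lung nonclassical monocytes 2 of 5 (C3 and Cfb) against 5.51%. In lung classical monocytes 2 of 3 were higher (C3 and Cfp) against 2.84% and 1 was lower (Cfb) against 6.52%.

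For lung epithelium 3 of 4 members were over 2-fold higher (C3, Cfb and C6) against 11.6% of genes, with a median of 2.15 against 0.04. The same 3 of 4 were higher in alveolar type 2 cells, against 10.4%, with Cfb there a bound. In lung fibroblasts 2 of 4 were higher (C3 and Cfb) against 9.33% and 1 was lower (C7) against 11.5%, with a median of 1.18 against -0.03. In adventitial fibroblasts of the lung 2 of 4 were lower (Masp1, whose TNF- UMIs came from 1 cell, and C7) against 15.5%. In lung endothelium 3 of 5 were higher (C3, Cfb and Cfp) against 10.0% of genes, with a median of 2.43 against 0.04. There 1 was lower (Masp1, from 48 UMIs over both libraries) against 8.99%. Lung T cells, the reference for free RNA, also had 3 of 4 members higher (C3, Cfb and Cfp) against 6.21% of genes, with a median of 3.34 against 0.04. Lung B or plasma cells had the same 3 of 4 higher against 6.45%, with a median of 2.61 against -0.27, and 0 were lower in either. The part of free RNA in the counts of the other lung cells was not tested.

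Other complement genes of the same cells were counted by the same rule. In synovial fibroblasts 8.45% of all genes were over 2-fold higher and 22.4% over 2-fold lower. In synovial fibroblasts 5 of 9 classical pathway genes were over 2-fold higher in the TNF+ library (C1qa, C1qb, C1qc, C1s2 and C2), of which the C1q chains are macrophage genes. Of 11 regulators there, which protect host cells, 3 were higher (Cd59a, Clu and Cpn1) and 5 lower (Cd46, Cd55, Cd55b, Cd59b and Vtn), a median of -0.80. Of 5 receptors 1 was higher (Itgb2) and 2 lower (C5ar1 and Cr2). Of 4 further genes of the alternative, lectin and terminal arms 1 was higher (Colec11) and 1 lower (Masp2), the latter near the share of all genes. In synovial mononuclear phagocytes 1 of 6 receptors was higher (C3ar1, the receptor of C3a) against 9.56% of genes and 1 lower (Itgax) against 19.4%.

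In lung fibroblasts 5 of 7 classical pathway genes were higher (C1qa, C1qb, C1qc, C1ra and C1s1) and 2 of 8 regulators (Cd55 and Clu), against 9.33% of genes. In both lists 0 were lower, against 11.5%. In lung epithelium 4 of 4 classical genes were higher (C1qa, C1qb, C1qc and C1ra) against 11.6% of genes. Of 8 regulators there 0 were past 2-fold, against 11.6% of genes higher and 7.31% lower. In lung mononuclear phagocytes 2 of 8 receptors were higher (C5ar1 and Cr2) against 4.50% of genes and 2 lower (C5ar2 and Vsig4) against 15.2%. The C1q genes, which mark macrophages, thus moved with the members in the shallow TNF+ fibroblasts and epithelial cells of the lung, and the part of free macrophage RNA in their ratios was not tested.

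Across the cell groups and libraries of a tissue, the genes with the pattern most like each member were found by Pearson's r of log2(CPM + 1), as a description over points that share libraries and depth. Over 56 lung points C3 was most like Cfb (r = 0.81) and then Saa3 (0.75), an acute-phase gene, whereas over 54 synovial points it was most like Ptgs2 (0.77), the inducible cyclooxygenase. Cfb was closest to Cpxm1 (0.73) in the synovium. Cfp was closest to Fcgr3 (0.90) in the lung and Lrrc25 (0.86) in the synovium. Fcna was closest to Ccl24 (0.92) in the lung and to Siglech (0.80) in the synovium, and Masp1 to Ccn5 (0.79) in the synovium. Hc was closest to Pla2g1b (0.86) and Sftpb (0.85) and C6 to Mlc1 (0.84) and Sftpc (0.83), of which the Sftp genes encode surfactant proteins. C7 was closest to Prkg2 (0.87) in the lung and to Gm20560 (0.82) in the synovium.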

How the data were processed

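Each of the 4 libraries was a matrix of UMI counts per gene and cell barcode, made by the authors with Cell Ranger 7.0.1 on the mm10 mouse reference and deposited as filtered counts. Introns are counted by default in that version. The libraries held 48454234 to 155989523 UMIs, and median depths of kept cells were 7137 to 12492 UMIs.

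The 10 members and all gene lists were chosen with earlier results of these data known, and limits on naming were set after the data were seen. Cells of both libraries of a tissue were clustered together without integration (scanpy 1.11.5, leidenalg 0.10.2) from 2000 variable genes without complement genes, 30 principal components, 20 neighbours and resolution 0.8 (0.6 within classes). Clusters were named by marker genes, and unnamed ones are called by their leading genes. Doublets were not removed, since a caller was run as an alternative (Scrublet).

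UMIs of each member were summed per subtype and library. Ratios were given for groups of 20 or more cells per library and 20 or more UMIs of the gene over both, and a library with no UMI was set to 3. Intervals were exact (Poisson for levels, Clopper-Pearson for shares, conditional binomial for ratios; scipy 1.17.1). Only the ratio calculation was run on simulated data, with Poisson counts for fibroblasts. Such counts do not hold many UMIs of a gene in 1 cell, so the run cannot show how the intervals behave there. With 1 library per group no test was possible. A group was called above T cells where the intervals of UMIs per cell did not overlap. Named genes were all members, the genes most like each by Pearson's r among those with at least 100 UMIs, and genes of the other lists past 2-fold. Alternatives were the filter, doublets, weighting, scaling and clustering, and, added after the data were seen, leaving out the cell with most UMIs. RefSeq start windows were found for 8 of the 10 members. The letters of AP-1 (TGANTCA) and NF-kB (GGGANTTTC) were also searched and matched in none of these, against 7.81% and 1.11% of all windows. The count of complement regulators in synovial mononuclear phagocytes is not reported here.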

Additional observations from a re-analysis of the deposited data

Results flagged for a closer look

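C3 in the kept endothelial cells had ratios of opposite sign in the tissues, with a log2 ratio of TNF+ over TNF- of 4.16 in the lung and -1.14 in the synovium. As a class, the TNF+ lung and TNF- synovial endothelial cells had C3 near the level of T cells. Arterial cells of the TNF- synovium and lymphatic cells of the TNF- lung and TNF+ synovium were above T cells beyond counting error. TNF+ lung endothelial cells had 0.352 C3 UMIs per cell against 0.316 in T cells, and the synovial ratio was -0.16 (-0.44 to 0.13) with all barcodes. Cfp in mononuclear phagocytes also had opposite directions, 0.69 in the lung and -0.73 in the synovium. The synovial subtypes that held Cfp were not the same in the genotypes. In synovial resident macrophages, held by both libraries, the Cfp ratio was 0.14 with an interval that included 0. In synovial nonclassical monocytes Cfp was over 2-fold higher in the TNF+ library. In the cluster led by Cd209a, Retnla and Mgl2 the Cfp intervals of both libraries overlapped. With 1 library per group the difference between tissues was not tested for either gene.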

How the results depend on the processing

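No paired analysis was possible because each group is 1 library and the labels carry no shared replicate numbers. No log2 ratio past 2-fold changed sign under any alternative run. Smaller ones did, among them C7 in synovial fibroblasts (0.71 without clusters of 1 library), C3 in lung adventitial fibroblasts (-0.22 in UMIs per cell), Cfb there (0.60 with all barcodes) and Cfb in Gdf10 Myoc fibroblasts (-0.15 in UMIs per cell). In the leading class of each member, using all barcodes moved 5 of 9 ratios, UMIs per cell 6 of 9 and the stricter filter 1 of 9. Outside the leading classes, using all barcodes moved 27 of 87 ratios, UMIs per cell 26 of 98 and the stricter filter 0 of 87. Cells over 5000 genes, shallow TNF+ lung stroma and rebuilt names limit all values, and the cause of each shift was not tested.

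With all barcodes the log2 ratio was 1.16 for Cfp in lung phagocytes, 0.18 for Hc in lung epithelium, 1.26 for C3 and 3.59 for Masp1 in synovial fibroblasts, and 0.27 for Fcna in synovial phagocytes. With the highest Scrublet scores removed it was 1.08 for Cfp, 1.86 for C3 and 2.49 for Cfb. With each library clustered alone it was 1.30 for Cfp, 1.69 for C3 and 2.25 for Cfb. Without clusters of 1 library it was 1.32 for Cfp, 1.45 for C3, 0.62 for Cfb, 1.03 for Masp1 and -1.15 for Fcna. With every cell weighted equally it was -4.10 for C7 in lung fibroblasts, 1.77 for C3, 2.05 for Cfb, 2.83 for Masp1 and -1.22 for Fcna. With median-of-ratios scaling it was 0.82 for Cfp, 2.11 for C3 and 2.70 for Cfb. In UMIs per cell it was 0.46 for Cfp, -0.65 for Hc, 0.58 for C6, -4.20 for C7, 1.65 for C3 and 2.24 for Cfb. The stricter filter gave 0.76 for C6.

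Shares of a gene's UMIs (TNF- then TNF+) with all barcodes were 82.5% and 94.0% for Cfp in lung phagocytes, 96.6% and 95.03% for Hc and 94.0% and 94.8% for C6 in lung epithelium, 95.7% and 85.2% for C3 and 96.0% and 87.6% for Cfb in synovial fibroblasts. They were 90.8% for C7 in TNF+ lung fibroblasts and 88.7% for Masp1 in TNF+ synovial fibroblasts. The stricter filter gave 93.8% and 60.8% for Hc, 59.6% for C6 (TNF+), and 97.2% and 81.9% for C3. Scrublet gave 60.6% for Cfp (TNF- lung), 97.1% for C3 (TNF-), and 97.8% and 100% for Fcna in synovial phagocytes. Clustering alone gave 46.8% and 81.1% for Cfp, and in TNF+ synovium 85.1% for C3 and 82.8% for Cfb.

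Without thinning, cells with a UMI were 79.4% and 90.6% for C3, 34.3% and 57.7% for Cfb and 2.48% and 15.9% for Masp1 in synovial fibroblasts, 27.3% and 29.5% for Cfp in lung phagocytes, 3.85% and 3.70% for Fcna in synovial phagocytes, 25.2% and 26.7% for C6 in lung epithelium, 49.3% for Hc in TNF- lung epithelium, 36.1% for C7 in TNF- lung fibroblasts and 0.868% for C9 in TNF- synovial fibroblasts. Genes over 2-fold higher were, with no minimum and with 100 UMIs, 31.2% and 5.52% in lung epithelium and 39.3% and 4.87% in lung fibroblasts, and 32.0% with no minimum in synovial fibroblasts. Genes over 2-fold lower were 34.0% and 9.63% in lung phagocytes, and 7.02% with no minimum in lung fibroblasts.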
